A study of Mus musculus with 6 samples.

Results

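The genes described here encode 10 C-type lectin receptors of myeloid cells: Clec4d, Clec4e, Clec4n, Clec4a2, Clec5a, Clec7a, Clec10a, Mgl2, Cd209a and Mrc1. Their members on the array were all probe sets whose platform annotation holds exactly 1 gene symbol, that symbol being one of the 10. This gave 13 of the 45101 probe sets on the array, with 2 probe sets each for Clec4e, Clec4n and Clec4a2 and 1 for each of the other 7 genes. The annotation names 18194 genes in this way. Each of 6 samples of mouse dendritic cells (DC) was hybridized to 1 Affymetrix mouse expression array. Bone marrow of C57BL/6 mice was grown for 6 days with GM-CSF at 10 ng/ml, and cells positive for CD11c and MHC II were sorted at the same time from the same cultures into Ly6G+ DC (3 arrays) and Ly6G- DC (3 arrays). Both groups share strain, culture and the CD11c and MHC II gates and differ in the neutrophil surface protein Ly6G. The labels give no age of the mice. Whether the 3 samples of a group are separate cultures or mice is not stated either, and the spread behind the p-values may therefore be only technical.

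C-type lectin receptors recognise sugars and lipids of fungi, mycobacteria and damaged cells through a lectin-like domain outside the cell. Some signal through the kinase Syk: Clec7a by a motif in its own tail, Clec4e, Clec4d and Clec4n through the FcRγ chain (Fcer1g), and Clec5a through the adaptors DAP12 (Tyrobp) and DAP10 (Hcst). From Syk the signal runs over CARD9, BCL10 and MALT1 to NF-kB and to cytokine genes. Clec4a2 carries an inhibitory motif that recruits phosphatases such as SHP-1 (Ptpn6), while Mrc1, Cd209a, Clec10a and Mgl2 mainly bind and take up glycosylated cargo in dendritic cells and macrophages.

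The receptors that signal through Syk had higher mean signals in Ly6G+ DC, and the endocytic receptors Clec10a, Mgl2 and Cd209a had nearly equal mean signals in both groups. Equal expression was not shown for these 3, whose intervals are wide. Cd209a was dim, with a 95% confidence interval of its log2 fold change of -1.27 to 1.39. Mrc1, the fourth endocytic receptor, had mean signals of 278 in Ly6G+ DC and 120.0 in Ly6G- DC, with overlap. The inhibitory receptor Clec4a2 had means of 2644 and 223 in Ly6G+ DC by its 2 probe sets, against 1409 and 135 in Ly6G- DC, also with overlap. Higher means were therefore not confined to the receptors that signal through Syk. All 13 probe sets passed the filter on low signals, and 12 had positive log2 fold changes (Ly6G+ DC over Ly6G- DC), where 45% of all 28254 probe sets tested were positive. Those of Clec4d, Clec5a and Clec7a, both of Clec4n and 1 of the 2 of Clec4e had no overlap between groups, with each Ly6G+ array above each Ly6G- array. These are 6 of 13, against 4.49% of all probe sets tested, while 0 of 13 were lower without overlap, against 7.24%. The receptors were chosen with earlier results of these data known, and 2 probe sets of 1 gene are not independent. Such counts beside the shares are therefore a description and not a test. By limma 0 of 13 passed an adjusted p under 0.05, as did 0% of all probe sets tested, and the smallest adjusted p among the 13 was 0.836. At an unadjusted p under 0.05, 6 of 13 were higher and 0 lower, where 2.75% of all probe sets tested were higher and 2.87% lower. The 6 were those of Clec4d, Clec5a and Clec7a, both of Clec4e and 1 of Clec4n. The median log2 fold change was 0.94 over the 13 and -0.06 over all probe sets tested. Signals are linear MAS5 values scaled by the authors, and fold changes are on the scale of log2(signal + 16), which understates those of dim probe sets. The counts rest on few arrays: without Ly6G+ DC 3 only 2 of the 13 were higher at an unadjusted p under 0.05 (0.951% of all probe sets), and without Ly6G- DC 3 only 3 (1.73%). After scaling the arrays to a common median, 9 of 13 were higher at that threshold, against 6.29% of all probe sets.

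**Figure D1:**
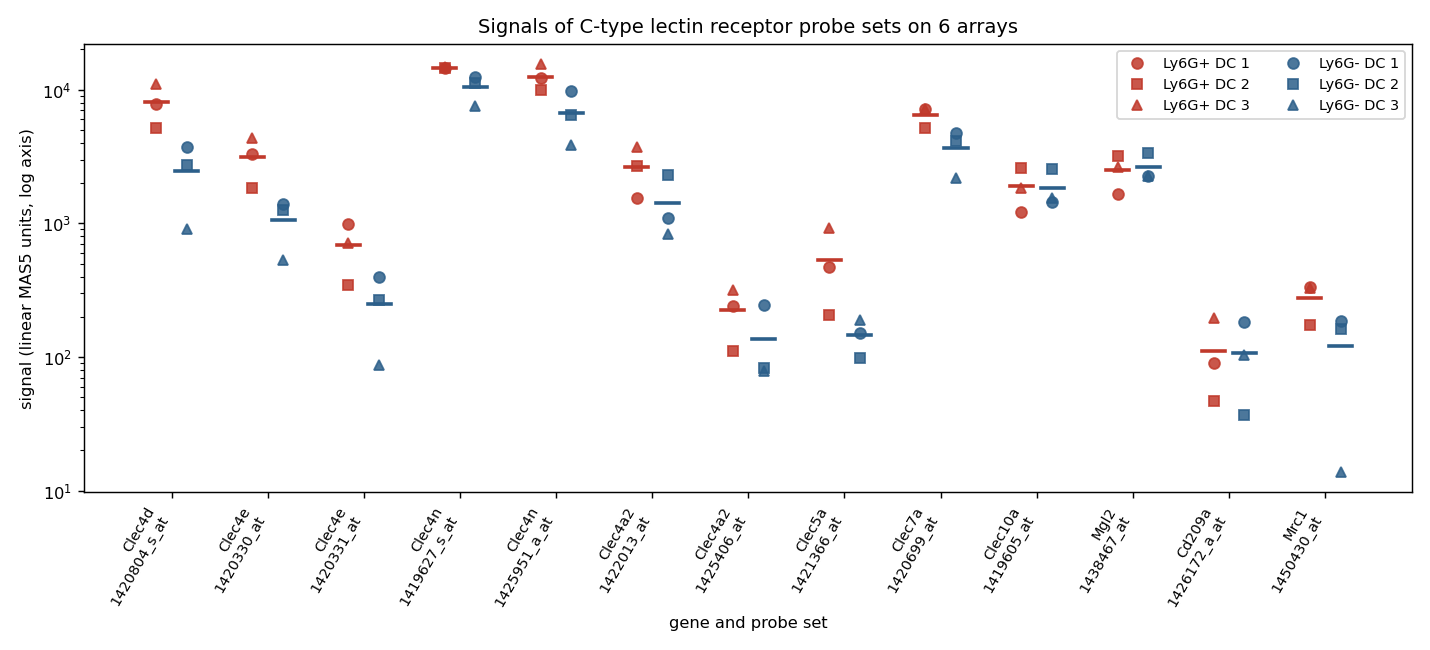
Signals of the 13 probe sets of C-type lectin receptors on each of the 6 arrays (linear MAS5 units on a log axis), with Ly6G+ DC at the left and Ly6G- DC at the right of each pair and bars at the group means. The Clec4d signals of 5179 to 11105 in Ly6G+ DC lie above those of 899 to 3730.0 in Ly6G- DC, while the groups interleave for Clec10a, Mgl2 and Cd209a, and levels of different probe sets are not comparable.

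Arrays differed in ways that were not balanced over the groups, and this touches several of the receptors. The spiked hybridization controls had geometric mean signals of 1648, 6688 and 2039 on Ly6G+ DC 1, 2 and 3, and of 1529, 12321 and 12842 on Ly6G- DC 1, 2 and 3. Ly6G+ DC 2, Ly6G- DC 2 and Ly6G- DC 3 thus form a high side, on which Actb gave a 3′ over 5′ ratio of 3.98 to 6.85, against 1.17 to 1.49 on the low side. The sides hold the groups unequally, so estimates from the group alone take in part of the difference between sides. A limma fit with the side as a block, chosen after seeing the data, called 0 of 13. At an unadjusted p under 0.05, 7 of 13 were higher in it, against 3.4% of all probe sets. Its median log2 fold change over the 13 was 0.74, against 0.94 with the group alone. Estimates within a side have no test, since each sets a single array of one group beside 2 arrays from the other. The medians of these estimates over the 13 probe sets were 0.60 within the low side and 0.78 within the high side. Over all probe sets tested they were -0.10 and 0.02. Of the 13, 11 were positive within both sides, a count that was not made over all probe sets. For 4 the difference between sides in the blocked fit was larger than the group difference without a block. Beside the group difference of the blocked fit itself, it was also larger for 1420331_at of Clec4e and for Mrc1. These had -1.25 and -1.18 (high side minus low side), against group differences of 1.08 and 1.08. The dendritic cell marker Itgax, whose product is CD11c and which was named for its use in the sort, had signals of 2728 to 7884 in Ly6G+ DC and 5610.2 to 9630.2 in Ly6G- DC. In samples of sorted cells, fewer cells that express a gene and less RNA per cell cannot be told apart.

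Clec4d and Clec4e had the smallest unadjusted p-values of the 10 genes by their brightest probe sets. They lie next to each other on chromosome 6 in the RefSeq gene table. Their promoter windows (RefSeq, GRCm38.p6) are printed beside that of Mgl2, whose log2 fold change of -0.09 ± 0.34 (SE) lay near 0 and changed sign between settings. They are chr6:123261857-123262156 on the plus strand for Clec4d, chr6:123289822-123290121 on the minus strand for Clec4e and chr11:70130107-70130406 on the plus strand for Mgl2. Each runs 5′ to 3′ along the gene's strand over 250 bases before and 50 after the start, and capitals mark matches on either strand to TTNNGNAA (C/EBP) and GAGGAA (PU.1), motifs of transcription factors of myeloid cells.
Clec4d: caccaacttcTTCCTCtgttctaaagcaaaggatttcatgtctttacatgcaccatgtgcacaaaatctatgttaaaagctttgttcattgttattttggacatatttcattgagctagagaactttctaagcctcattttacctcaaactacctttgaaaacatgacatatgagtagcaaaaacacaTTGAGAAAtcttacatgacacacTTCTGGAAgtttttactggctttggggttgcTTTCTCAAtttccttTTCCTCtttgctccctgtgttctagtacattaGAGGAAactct
Clec4e: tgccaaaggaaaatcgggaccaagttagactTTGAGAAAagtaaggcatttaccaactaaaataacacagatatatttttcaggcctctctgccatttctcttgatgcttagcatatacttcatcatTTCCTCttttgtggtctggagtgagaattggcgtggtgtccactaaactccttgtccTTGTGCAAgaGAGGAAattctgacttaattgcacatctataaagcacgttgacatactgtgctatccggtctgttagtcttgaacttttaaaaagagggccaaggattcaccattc
Mgl2: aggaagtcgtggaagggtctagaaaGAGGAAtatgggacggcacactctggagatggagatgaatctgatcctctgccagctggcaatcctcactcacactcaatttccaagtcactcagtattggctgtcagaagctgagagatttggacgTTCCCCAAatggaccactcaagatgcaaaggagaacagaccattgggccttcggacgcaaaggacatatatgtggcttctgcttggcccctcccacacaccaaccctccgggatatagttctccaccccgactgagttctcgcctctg

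Windows were at hand for 8 of the 10 genes, and 3 motifs were searched, chosen with the values of the members known. The Clec4d window held 3 matches each to C/EBP and PU.1, and the Clec4e window 2 each. In the Clec4e window a C/EBP match began 66 bases before the start and a PU.1 match 56 bases before it. At least 1 match to both motifs was found in 5 of the 8 genes, Mgl2 included, and in 11.8% of all 32851 promoter windows. Taken singly, the C/EBP motif was in 7 of 8 genes and 40.7% of windows, and PU.1 in 6 of 8 and 28.3%. The AP-1 motif TGANTCA was in the Clec4a2 window alone, and in 7.81% of windows. A match is a string of letters and not a binding site.

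Clec4d, also called MCL, is an FcRγ-coupled receptor that forms complexes with Clec4e. Its probe set 1420804_s_at had signals of 7839, 5179 and 11105 on Ly6G+ DC 1, 2 and 3, and of 3730.0, 2733 and 899 on Ly6G- DC 1, 2 and 3. The lowest Ly6G+ array lay above the highest Ly6G- array, and Ly6G- DC 3 was the lowest of the 6. The log2 fold change of 1.86 ± 0.52 (SE) was the highest of the 13, with an unadjusted p of 0.00465 by limma and an adjusted p of 0.836. It was 1.32 within the low side and 1.71 within the high side. Without Ly6G- DC 3 it was 1.26, and without Ly6G- DC 1 it was 2.28.

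Clec4e, or Mincle, binds the mycobacterial glycolipid trehalose dimycolate. Its probe set 1420330_at had signals of 3289, 1825 and 4349 for Ly6G+ DC and of 1399.6, 1258 and 535 for Ly6G- DC. Every Ly6G+ array was above every Ly6G- array, with a log2 fold change of 1.58 ± 0.44 (SE) and an unadjusted p of 0.0049 by limma (adjusted p = 0.836). The second probe set, 1420331_at, had 982, 347 and 718 for Ly6G+ DC and 394, 265 and 86.3 for Ly6G- DC. Here the groups overlapped, because Ly6G+ DC 2 lay under Ly6G- DC 1. Its log2 fold change was 1.50 ± 0.54 (SE), so both probe sets gave about the same difference. Without Ly6G- DC 3 the second had 0.92. On the low side they had 1.42 and 1.06, and on the high side 1.14 and 1.10.

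Clec4n, or Dectin-2, recognises fungal mannans and also pairs with FcRγ. Probe set 1419627_s_at had signals of 14427, 14487 and 14738 for Ly6G+ DC, which lay close together, and of 12489, 11324 and 7532 for Ly6G- DC. Probe set 1425951_a_at had 12262, 9879.9 and 15478.5 for Ly6G+ DC and 9759, 6511 and 3852 for Ly6G- DC. Neither overlapped between groups, but for 1425951_a_at Ly6G+ DC 2 exceeded Ly6G- DC 1 by little. The log2 fold changes were 0.51 ± 0.35 and 0.98 ± 0.41 (SE), with unadjusted p-values of 0.175 and 0.037 by limma. The probe sets therefore differed by 0.47 in their estimates. Without Ly6G- DC 3 they had 0.29 and 0.63. On the low side they had 0.22 and 0.50, and on the high side 0.65 and 0.98. The suffix s_at, which the probe set of Clec4d carries as well, marks probes shared by several transcripts, so such a signal may not come from 1 gene alone.

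Clec7a, or Dectin-1, is the receptor for beta-glucans of fungal cell walls. Its probe set 1420699_at had signals of 7210.5, 5175 and 7182 for Ly6G+ DC and of 4748, 4159 and 2168 for Ly6G- DC. The groups did not overlap, with Ly6G- DC 3 lowest, and the log2 fold change was 0.88 ± 0.37 (SE), with an unadjusted p of 0.0392 by limma. It was 0.60 within the low side and 0.78 within the high side, and 0.54 without Ly6G- DC 3.

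Clec5a, or MDL-1, binds dengue virus and signals through DAP12 and DAP10. Probe set 1421366_at had signals of 471, 205 and 926 for Ly6G+ DC, against 150.0, 98.4 and 190.2 for Ly6G- DC. All Ly6G+ arrays lay above all Ly6G- arrays, though Ly6G+ DC 2 exceeded Ly6G- DC 3 by little. The log2 fold change was 1.56 ± 0.50 (SE), with an unadjusted p of 0.0106 by limma. Within the low side it was 2.03 and within the high side 0.52, the widest gap between sides among the 13 probe sets. Leaving out Ly6G+ DC 3 gave 1.06, and leaving out Ly6G+ DC 2 gave 2.10.

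Clec4a2, or DCIR1, is the inhibitory receptor of the set. Probe set 1422013_at had signals of 1542, 2666 and 3723 for Ly6G+ DC and of 1093, 2296 and 839 for Ly6G- DC. Probe set 1425406_at had 242, 111 and 316 for Ly6G+ DC and 245, 82.1 and 79.0 for Ly6G- DC. Both overlapped between groups, and they ordered the arrays differently: 1425406_at was dim on all 3 arrays of the high side, whichever group they belonged to, and 1422013_at was not. The log2 fold changes were 0.94 ± 0.44 and 0.72 ± 0.51 (SE), with unadjusted p-values of 0.0579 and 0.185 by limma. Within the low and the high side 1422013_at had 1.12 and 0.93, and 1425406_at had 0.17 and 0.40. The estimate of 1425406_at was 0.43 after leaving out Ly6G+ DC 3 and 0.47 after leaving out Ly6G- DC 3. It was 1.12 if Ly6G+ DC 2 was left out and 1.20 if Ly6G- DC 1 was. A further probe set, 1425407_s_at, is annotated to both Clec4b1 and Clec4a2 and so was no member. Its signals were 2778, 2991 and 3625 for Ly6G+ DC and 1963, 2490.5 and 1182 for Ly6G- DC, with a log2 fold change of 0.79 ± 0.34 (SE).

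Mrc1 encodes the mannose receptor, which takes up mannosylated glycoproteins. Probe set 1450430_at had signals of 333, 172 and 327 for Ly6G+ DC and of 185, 161 and 13.8 for Ly6G- DC. Ly6G+ DC 2 lay under Ly6G- DC 1, so the groups overlapped, and the signal of Ly6G- DC 3 was below the 40th percentile of its array, 61.7. The log2 fold change was 1.47 ± 0.67 (SE), with a 95% confidence interval of -0.01 to 2.95 and an unadjusted p of 0.0514 by limma. Without Ly6G- DC 3 it was 0.58, so the estimate rested largely on this array.

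Clec10a and Mgl2 encode the galactose-binding lectins MGL1 and MGL2, and they are neighbours on chromosome 11. Clec10a had signals of 1226, 2606 and 1851 for Ly6G+ DC and of 1443, 2530.1 and 1555 for Ly6G- DC. Mgl2 had 1671, 3197 and 2651 for Ly6G+ DC and 2249.9, 3368 and 2246 for Ly6G- DC. In both genes the groups interleaved, and number 2 of each group was its highest array. The log2 fold change was 0.02 ± 0.36 (SE) for Clec10a, with a 95% confidence interval of -0.79 to 0.83. For Mgl2 it was -0.09 ± 0.34 (SE), with an interval of -0.85 to 0.67. These intervals take in differences as large as that estimated for Clec4n by 1419627_s_at, so equal expression was not shown. The sign of either estimate changed with the setting: Clec10a had -0.05 after quantile normalization, and Mgl2 had 0.24 after scaling to a common median.

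Cd209a, a mouse relative of human DC-SIGN, was dim. Its signals were 90.2, 46.6 and 196 for Ly6G+ DC and 181, 36.8 and 104 for Ly6G- DC. Those of Ly6G+ DC 2 and Ly6G- DC 2 lay under the 40th percentiles of their arrays, 56.8 and 59.5. Its log2 fold change of 0.06 ± 0.60 (SE) had a 95% confidence interval of -1.27 to 1.39, the second widest after that of Mrc1. It was -0.39 within the low side and -0.35 within the high side. Equal expression was thus not shown here either.

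**Figure D2:**
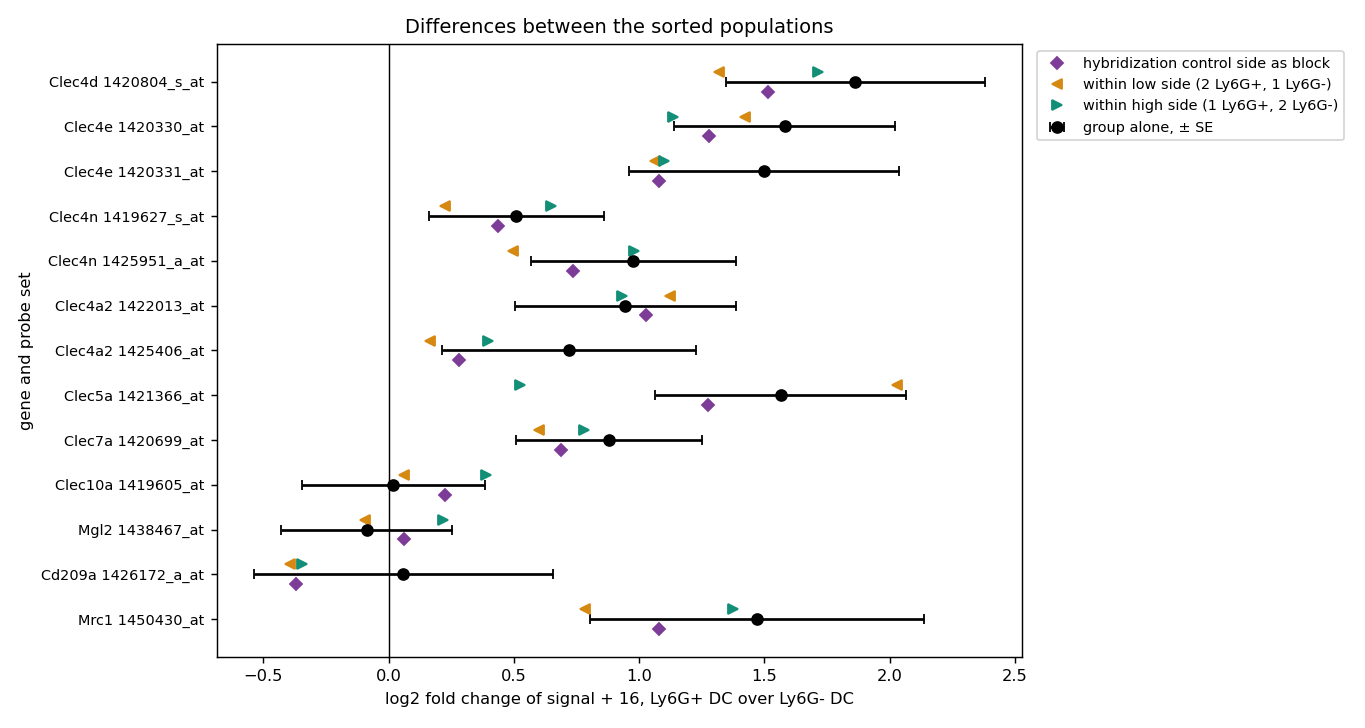
Log2 fold changes of signal + 16 (Ly6G+ DC over Ly6G- DC) for each probe set, with circles and bars for the fit of the group alone ± SE, diamonds for the fit that adds the side of the hybridization controls as a block, and triangles for values within a side. Both triangles lie right of 0 for 11 of the 13 probe sets, and those of Clec5a lie farthest apart, at 2.03 and 0.52.

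Among the arrays, Ly6G- DC 3 stood apart most often. It had the lowest signal of the 6 arrays for 9 of the 13 probe sets, and Ly6G+ DC 3 had the highest for 8. These counts were not made over all probe sets tested, so they cannot be called particular to the receptors. Without Ly6G- DC 3 the median log2 fold change of the 13 was 0.58, and without Ly6G+ DC 3 it was 0.80. Without Ly6G- DC 1 it was 1.20. The signs of the 10 probe sets other than those of Clec10a, Mgl2 and Cd209a stayed positive in each of these fits.

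**Figure D3:**
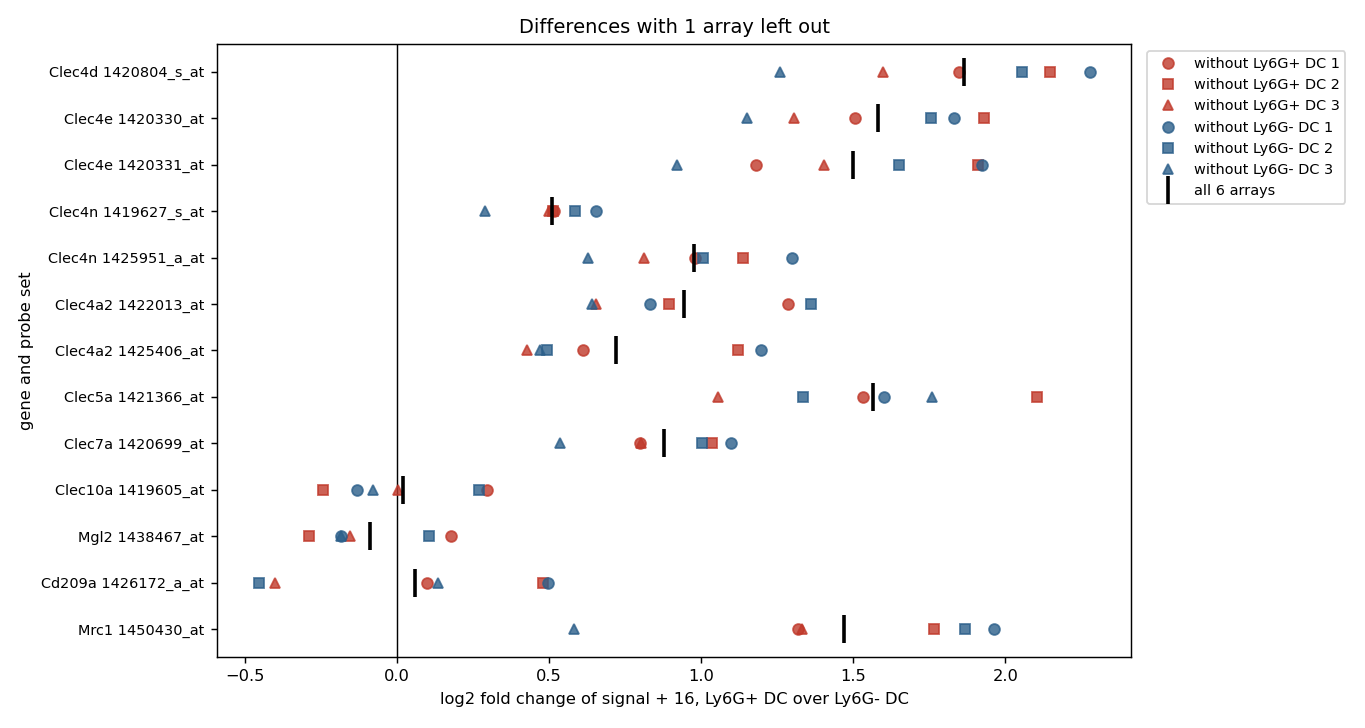
Log2 fold changes of signal + 16 (Ly6G+ DC over Ly6G- DC) for each probe set after leaving out 1 array, with the value from all 6 arrays as a black bar. Leaving out Ly6G- DC 3 gives the lowest value for Clec4d (1.26) and Mrc1 (0.58), and the points of Clec10a, Mgl2 and Cd209a fall on both sides of 0.

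The 4 Clec4 receptors and their neighbours form a cluster on chromosome 6. In RefSeq the order runs Clec4a1, Clec4a3, Clec4a4, Clec4b1, Clec4a2, Clec4b2, then 2 pseudogenes, Clec4n, Clec4d and Clec4e. Probe sets with 1 symbol named 2 of the cluster's genes beside the members, Clec4a3 and Clec4b1. Their log2 fold changes were 0.78 ± 0.46 and 0.54 ± 0.38 (SE), and the groups overlapped in both. Clec4d and Clec4e, at the end of the cluster, had the highest estimates of those measured in it, and their neighbour Clec4n had 0.51 and 0.98 by its 2 probe sets.

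The signalling partners of these receptors had no common direction. Of 16 tested genes on the list of adaptors, kinases and phosphatases, 0 passed the adjusted p of limma and 8 had positive values, against 44.3% of all genes, with a median log2 fold change of -0.002 against -0.07 over all genes tested. Hcst, the DAP10 adaptor, had signals of 939.6, 581 and 754 for Ly6G+ DC and of 344, 459.5 and 237 for Ly6G- DC, with no overlap and a log2 fold change of 1.11 ± 0.34 (SE). Ptpn6, the phosphatase SHP-1, had 1739, 1254 and 3524 for Ly6G+ DC and 1245, 1009.8 and 691 for Ly6G- DC, also with no overlap, with 1.04 ± 0.41 (SE). These were the 2 of 16 with an unadjusted p under 0.05 as higher (0 lower), where 2.99% of all genes were higher. Fcer1g, the FcRγ chain, had 11311, 3644 and 11588 for Ly6G+ DC and 9193, 3449 and 2456 for Ly6G- DC. It was lowest on the 3 arrays of the high side, and its log2 fold change was 0.87 ± 0.57 in the fit of the group alone and 0.32 within either side. Malt1, of the CARD9 complex, had -0.68 ± 0.32 and Vav1, an exchange factor downstream of Syk, 0.54 ± 0.34 (SE). Tyrobp, the DAP12 adaptor, and Syk, named here for their role after their values were seen, had 0.41 ± 0.34 and -0.39 ± 0.37 (SE).

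Of 12 tested cytokine, chemokine and response genes that these receptors are known to induce, 0 passed the adjusted p of limma, 10 had positive values and the median log2 fold change was 0.97. Signals did not overlap for 5 of them, all higher in Ly6G+ DC, against 4.95% of all genes. These were Ptgs2, Cxcl2, Tnf, Il6 and Ccl3, with log2 fold changes of 2.68 ± 0.49, 1.57 ± 0.38, 1.11 ± 0.32, 1.62 ± 0.46 and 1.37 ± 0.38 (SE). Il12b, a subunit of interleukin 12 and interleukin 23, had -0.26 ± 0.35 and was named after its value was seen. With the array name in the titles as a block, Ptgs2 passed the adjusted p of limma. The list was drawn up with earlier results of these data known, and many other receptors induce the same genes.

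Among 18 other tested genes of C-type lectin-like proteins, 0 passed, 10 were positive and the median log2 fold change was 0.15. Those with the smallest unadjusted p were Cd93 at 0.93 ± 0.36, Cd302 at 0.51 ± 0.29, Olr1, a receptor for oxidised lipoproteins, at 0.49 ± 0.29, Clec4a3, given above, and Cd69, an early activation antigen, at 0.62 ± 0.38 (SE). Of the 18, Cd93 alone had an unadjusted p under 0.05, where 2.99% of all genes were higher, and Cd93 and Olr1 did not overlap between groups, against 4.95% of all genes.

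Markers of other cell types differed between the groups beside the receptors. All 13 tested neutrophil markers had all Ly6G+ arrays above all Ly6G- arrays, against 4.95% of all genes, and their summed signal was 89302 to 116855 in Ly6G+ DC and 12826 to 29708 in Ly6G- DC. The markers differed in level on Ly6G- DC 1, 2 and 3, whose 40th percentiles were 54.6, 59.5 and 61.7. Cd177 had 7.9, 42.8 and 2.7 there and Cxcr2 14.7, 24.3 and 19.2, all under these percentiles, while S100a8 had 2434, 4628 and 925. Cd177 and Cxcr2 thus passed the filter only through the Ly6G+ arrays, where they are high, and this favoured a lack of overlap. Both are counted among the 13 above and the 12 below. The sums of the neutrophil markers on Ly6G- DC 1, 2 and 3 were 18127, 29708 and 12826. On these arrays 1422013_at of Clec4a2 had the same order, with 1093, 2296 and 839. Clec4d, with 3730.0, 2733 and 899, and Clec5a, with 150.0, 98.4 and 190.2, did not. The 6 tested monocyte markers were positive as well, 3 of them without overlap, with summed signals of 13483 to 17910 in Ly6G+ DC and 4355 to 12775 in Ly6G- DC. All 12 dendritic cell markers were negative, 8 without overlap against 7.86% of all genes, and their summed signal was 72397 to 144323 in Ly6G+ DC and 118327 to 262282 in Ly6G- DC. These sums follow the side of the hybridization controls in part. H2-Aa alone had 62040 to 111128 and 120546 on the high side and 14475 to 22344 on the low side. Of the 10 tested macrophage markers 5 were positive and 5 negative, with summed signals of 32979 to 45013 in Ly6G+ DC and 29903 to 56603 in Ly6G- DC. Of 7 tested eosinophil, basophil and mast cell markers 5 were positive, and 2, the eosinophil granule genes Prg2 and Epx, did not overlap. By limma 0 markers of these lists passed the adjusted p, while at an unadjusted p under 0.05 there were 12 neutrophil, 4 monocyte and 2 eosinophil markers higher and 6 dendritic cell markers lower, where 2.99% of all genes were higher and 3.19% lower. With the array name in the titles as a block, 9 neutrophil markers and Prg2 passed the adjusted p. The part of these cells in the receptors' differences was not tested. Alternative activation is a state in which Mrc1, Clec10a and Mgl2 are known to be high in macrophages. Its list had a median of -0.14 over 7 genes, 3 of them positive, against 44.3% of all genes. At an unadjusted p under 0.05 by limma, 1 of the 7 was higher (Chil3) and 1 lower (Irf4), each without overlap. Chil3 had 1.85 ± 0.45, Retnla 1.14 ± 0.58 and Arg1 0.81 ± 0.43, while Irf4, which is also on the dendritic cell list, had -0.67 ± 0.29 and Pdcd1lg2 -0.55 ± 0.31 (SE).

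**Figure D4:**
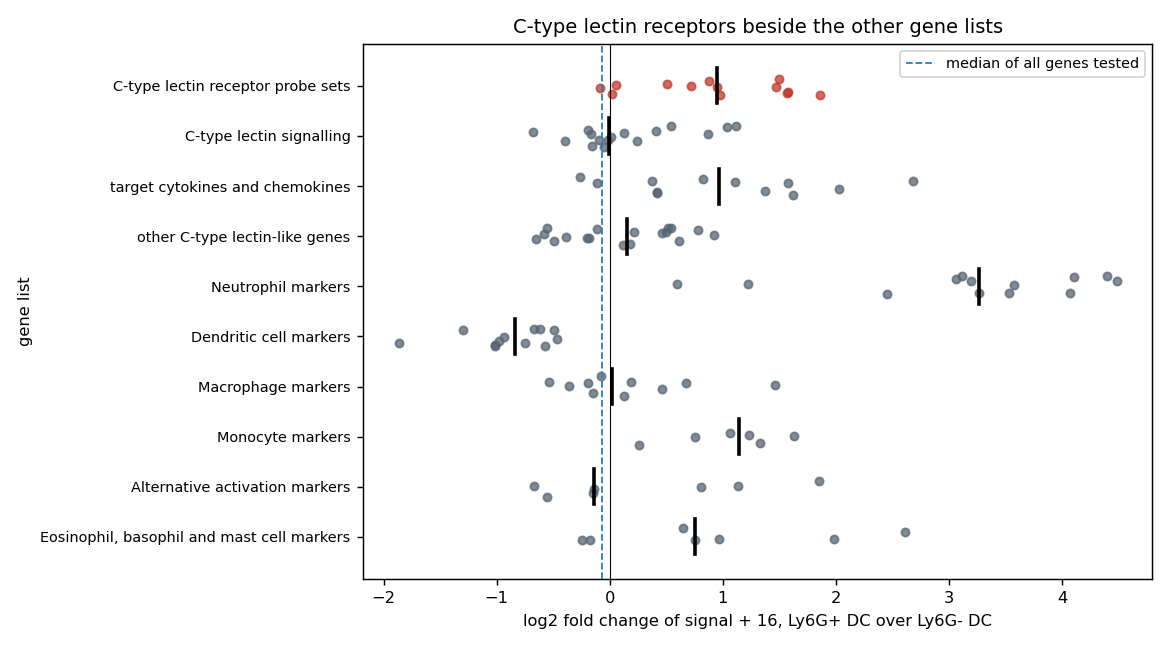
Log2 fold changes of signal + 16 (Ly6G+ DC over Ly6G- DC) for the 13 receptor probe sets and for the genes of each list (1 point per gene), with black bars at the medians and a dashed line at the median of all genes tested, -0.07. The receptor probe sets have a median of 0.94, the neutrophil markers 3.27 and the dendritic cell markers -0.84.

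The genes whose profile over the 6 arrays was most like that of a receptor were found by the root mean square difference of log2 values centred on their mean. For Clec4e the nearest were Igsf6, Plac8 and Pag1, at 0.12, 0.16 and 0.19 log2 units, and Plac8 is on the monocyte list. For Clec4d they were Samd9l, AB124611 and Ptgr1, at 0.16, 0.22 and 0.22. Clec7a had Cd84, Cyb5r4 and Tpd52 at 0.07, 0.07 and 0.09, while no gene came closer to Clec5a than 0.38 (Fnip1, Gadd45a and Nfkbiz). Mrc1 had Ifnlr1, F13a1, on the monocyte list as well, and Hp at 0.19, 0.20 and 0.26. All profiles share the same 6 arrays, so these values are a description.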

How the data were processed

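The RNA had been prepared with Trizol, and 200 ng per sample went into oligo-dT primed amplification with biotin labelling, per the labels' protocols. The deposited table holds linear intensities, one per probe set and array, and the authors had scaled every array to a mean of 250.0 after 2% trimming at both ends. Per the submitters' processing notes the tools were Affymetrix Expression Console 2.0, MAS5 and GCOS. Their settings are not given in the sources used here. Mismatch subtraction by MAS5 makes low signals noisy.

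Of 45101 probe sets, 34958 had 1 gene symbol in the platform annotation, 932 several and 9211 none. Ly6g itself was not analysed here. All 10 receptor genes matched RefSeq (GRCm38.p6) by Entrez identifier. Control probe sets (64) were left out of tests, and a probe set was tested when at least 3 of 6 arrays had a signal above their 40th percentile, as was so for all 13, 11 of them on all 6. This left 28254 probe sets and 13262 genes, each gene by its brightest tested probe set in the lists. Values of log2(signal + 16) were fitted by limma 3.58.1 under R 4.3.3 (group alone, eBayes with an intensity trend, Benjamini-Hochberg over all probe sets tested, threshold 0.05), and the code was tested on simulated data. Errors are SE from limma, and 3 arrays per group limit the precision. The receptors and lists were chosen with earlier results of these data known. Genes named from a list were those called, or else up to 5 with the smallest unadjusted p, with exceptions stated. For likeness, the 3 nearest genes of the 5 receptors with the smallest unadjusted p are given. The deviations of same-numbered arrays from their group means correlated at 0.52, 0.26 and -0.04 for numbers 1, 2 and 3. These values cannot decide whether the numbers mark pairs. For numbers 1 and 2 both arrays lie on the same side of the hybridization controls, and for number 3 they lie on opposite sides. No pairing is given in the labels, so the main fit did not use the numbers, and a fit with them as a block is given below.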

Additional observations from a re-analysis of the deposited data

How the results depend on the processing

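No alternative called any of the 13 receptor probe sets at an adjusted p under 0.05. Over all probe sets, limma called 19 with the replicate number as a block (replicate block), 21 with the array name in the titles as a block, 1 without Ly6G- DC 2 and 0 in the other fits, where all 6 arrays without a block gave 0. Leaving out 1 array in turn gave 0 to 1. Of the list genes, 11 were called with either block (9 neutrophil markers, Ptgs2 and Prg2) and 0 to 1 with 1 array left out. With the replicate block the smallest adjusted p of a receptor was 0.202 (Clec5a), and without Ly6G- DC 1 it was 0.104.

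Of 230 estimates of single probe sets under the alternatives, 219 kept their sign and 11 did not, all of them of Clec10a, Mgl2 or Cd209a, whose estimates lie within 0.1 of 0. Clec10a had -0.054 after quantile normalization and -0.24 to 0.30 with 1 array left out. Mgl2 had 0.24 after scaling to a common median, 0.060 with the hybridization control block, and -0.29 to 0.18 with 1 array left out. Cd209a had -0.37 with that block and -0.45 to 0.50 with 1 array left out, and it did not pass the filter at the 60th percentile. Scaling to a common median moved the median of all probe sets to 0.23, against -0.06 with the authors' scaling, and that of the receptors to 1.27, against 0.94, so relative to all probe sets the receptors stayed about as high. Of all probe sets with an unadjusted p under 0.05, 1777 were then higher and 239 lower, against 778 and 811 with the authors' scaling and 912 and 543 after quantile normalization. Of the receptors 9 were then higher. The causes were not tested. Cd209a and, on Ly6G- DC 3, Mrc1 lay near or under the 40th percentile, which limits what their values can show.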
